A study of Mus musculus with 11 samples.

Results

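Phase II conjugation enzymes attach a polar group to drugs, hormones, bile pigments and reactive lipids so that these can leave the cell and the body. The members were the protein-coding genes whose symbols name a glutathione S-transferase of class alpha, kappa, mu, omega, pi, theta or zeta, a microsomal glutathione S-transferase, a UDP-glycosyltransferase of family Ugt1, Ugt2 or Ugt3, or a sulfotransferase. The rule found 67 genes among the 53801 listed. They were 22 soluble glutathione S-transferases with the organelle enzyme *Gstk1*, 3 microsomal ones (Mgst), 9 Ugt1, 10 Ugt2, 2 Ugt3 and 21 sulfotransferase (Sult) genes. Of the 67, 46 had enough reads to be tested and 21 did not.

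The values are bulk RNA-Seq read counts from renal cortex of 11 male mice aged for 2 years on a mixed strain background, each mouse 1 library. The 6 Cpt1aCKO mice carried floxed *Cpt1a* with *Pax8*-rTTA and tetO-Cre, which together delete floxed DNA in renal tubule epithelium when doxycycline is given. The 5 floxed control mice are named only as such by the labels, while blot labels of the study name old floxed mice with *Pax8* and without LC1, the tetO-Cre line. Mice of both groups were fed doxycycline for 3 weeks at 5 to 8 weeks of age. The comparison asks how loss of tubular *Cpt1a*, which admits long-chain fatty acids to mitochondria, left the conjugation genes of the old kidney. The deletion was meant for tubules, and loss in other cells was not measured here. Values by mouse are listed below in 1 order, namely S2152, S7601, S7762, S2582 and S2578 for floxed control and S2155, S2394, S2397, S7602, S7763 and S2577 for Cpt1aCKO. Levels are CPM, read counts brought to a common library size with TMM scaling, which evens out library composition.

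The families differ in the group they add. Glutathione S-transferases join glutathione to electrophiles such as aldehydes from oxidized lipids, and in the proximal tubule the product is trimmed and acetylated to a mercapturic acid that is lost in urine. UDP-glycosyltransferases of families Ugt1 and Ugt2 add glucuronic acid to steroids, bilirubin and drugs at the endoplasmic reticulum, and the human enzymes of family UGT3 use other sugars. Sulfotransferases move sulfate from the donor PAPS to phenols, catecholamines and steroids in the cytosol. The proximal tubule is the main site of this chemistry in the kidney and secretes the products.

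The promoters of *Ugt2b38*, *Ugt2b37* and *Ugt2b5* are shown because these genes of chromosome 5 had very unlike levels from mouse to mouse (values below). The promoters share a run of bases near the start sites, and *Ugt2a3* lies between *Ugt2b38* and *Ugt2b37*. Sequences are from RefSeq on build GRCm38.p6, minus strand, read 5′ to 3′ from 250 bases before to 50 after the start, at chr5:87424154-87424453, chr5:87254739-87255038 and chr5:87140291-87140590. Capitals mark the longest run of bases that all 3 promoters share, 62 bases long, which begins 71, 85 and 68 bases before the respective start and holds the nuclear receptor motif AGGTCA.
Ugt2b38: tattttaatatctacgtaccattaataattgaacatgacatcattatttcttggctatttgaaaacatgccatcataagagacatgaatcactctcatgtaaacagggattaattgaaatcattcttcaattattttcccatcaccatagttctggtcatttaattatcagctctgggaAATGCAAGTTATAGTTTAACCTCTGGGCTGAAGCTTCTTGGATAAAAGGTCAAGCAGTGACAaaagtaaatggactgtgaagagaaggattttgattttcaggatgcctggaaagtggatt
Ugt2b37: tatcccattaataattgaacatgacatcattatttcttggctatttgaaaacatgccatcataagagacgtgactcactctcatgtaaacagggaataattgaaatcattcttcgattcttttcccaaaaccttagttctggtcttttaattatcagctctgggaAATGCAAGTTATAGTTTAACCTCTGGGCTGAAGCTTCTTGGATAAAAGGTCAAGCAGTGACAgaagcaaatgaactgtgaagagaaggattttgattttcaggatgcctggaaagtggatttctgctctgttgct
Ugt2b5: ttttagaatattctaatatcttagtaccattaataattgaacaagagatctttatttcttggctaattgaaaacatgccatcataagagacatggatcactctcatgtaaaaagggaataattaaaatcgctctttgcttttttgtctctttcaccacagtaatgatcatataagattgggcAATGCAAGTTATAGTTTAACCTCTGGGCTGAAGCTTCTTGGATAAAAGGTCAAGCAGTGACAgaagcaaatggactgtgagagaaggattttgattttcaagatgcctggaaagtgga

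*Gstp1* and *Gstp2* are shown because *Gstp1* was among the members with an unadjusted p under 0.05 and the pi-class gene *Gstp2* shares transcript sequence with it. Their promoters, from the same source and also on the minus strand, lie at chr19:4037863-4038162 and chr19:4042172-4042471. Capitals mark each match, on either strand, to TGANNNNGC, the core of the antioxidant response element bound by Nrf2, with 3 matches in *Gstp1* and 1 in *Gstp2*. The match that both promoters hold begins 74 bases before the start of *Gstp1* and 89 before that of *Gstp2*.
Gstp1: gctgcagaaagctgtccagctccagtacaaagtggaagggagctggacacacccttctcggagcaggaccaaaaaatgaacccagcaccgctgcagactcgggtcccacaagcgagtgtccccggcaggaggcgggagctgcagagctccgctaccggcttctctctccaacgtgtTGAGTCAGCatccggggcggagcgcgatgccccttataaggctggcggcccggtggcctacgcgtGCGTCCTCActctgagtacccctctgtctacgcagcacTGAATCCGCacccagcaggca
Gstp2: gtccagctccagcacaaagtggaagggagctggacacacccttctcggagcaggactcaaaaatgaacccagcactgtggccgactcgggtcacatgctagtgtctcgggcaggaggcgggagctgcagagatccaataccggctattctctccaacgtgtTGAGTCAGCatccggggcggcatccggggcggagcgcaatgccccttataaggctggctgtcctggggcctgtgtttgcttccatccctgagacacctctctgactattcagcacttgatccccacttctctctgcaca

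RefSeq held promoters for 59 of the 67 members, 71 promoters in all. On either strand TGANNNNGC was found in 42.3% of these against 41.3% of all 32851 promoters, and AGGTCA in 16.9% against 16.3%. Only these motifs, marked or named in the sequences above, are given, and other motifs are not reported here. The shares describe letters in a window and are not evidence of binding.

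Libraries held 39628721 to 57459929 reads on genes. *Cpt1a* was at 418 to 548 CPM in floxed control and 38.4 to 97.3 CPM in Cpt1aCKO mice, without overlap, which matches the labels. Proximal tubule S1 and S2 markers summed to 14239 to 16426 CPM in floxed control and 13291 to 17309 CPM in Cpt1aCKO mice, and S3 markers to 2440 to 3770 and 2352 to 3356 CPM. Most of the S1 and S2 sum came from *Slc34a1*. Of the 10 S1 and S2 markers, 1, *Slc4a4*, was higher in Cpt1aCKO mice at an unadjusted p under 0.05 by edgeR, beside 3.35% of all genes tested. The log2 fold changes of these markers ran from -0.248 for *Slc5a2* to 0.271 for *Slc5a12*, with a median of 0.141. The list for distal convoluted plus connecting tubule summed to 1420 to 1868 CPM in floxed control and 1187 to 1376 CPM in Cpt1aCKO mice, without overlap. Of its genes, 3 of 6 were lower at an unadjusted p under 0.05, beside 2.57% of all genes tested. The same held for 2 of 6 genes of the thick ascending limb (sums of 4312 to 5647 and 4221 to 5560 CPM). Their part in the levels of the conjugation genes was not tested. The 9 hepatocyte markers summed to 1725 to 2307 CPM in floxed control and 1641 to 2642 CPM in Cpt1aCKO mice, nearly all of it from *Cyp2e1*, which kidney also expresses, and none of the 7 tested had an unadjusted p under 0.05 by edgeR. Of that list, *Serpina3k* had no read in any mouse, *Alb* was at 12.7 ± 3.49 against 11 ± 1.68 CPM in floxed control against Cpt1aCKO mice, *Ttr* at 0.468 to 47.97 CPM and *Serpina1a* at 0.736 to 28.7 CPM over the 11 mice. The Cpt1aCKO library S7602 held 158 CPM on olfactory receptor genes (before TMM), against 8.89 to 40.8 CPM in the other mice, and was highest for many genes with few reads.

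The conjugation genes of the old cortex were led by few members of each family. Per kilobase of exon, the scale on which genes can be set beside each other, the highest levels over the 11 mice were *Ugt3a2* at 616 ± 48.4 CPM per kb (SD, n = 11), *Gstm1* at 561 ± 48.6, *Gsta2* at 310.5 ± 73.3 and *Sult1d1* at 287 ± 29.9. *Gstm5*, *Gstp1*, *Mgst3*, *Gstt1* and *Gstt2* followed at 209.8 ± 24.8, 178 ± 26.2, 159 ± 17, 157 ± 15.4 and 109 ± 18 CPM per kb. The steps from *Gsta2* to *Sult1d1* and from *Mgst3* to *Gstt1* were smaller than either gene's SD over mice. Within families, *Ugt3a2* made up 89.3% of the summed Ugt3 level per kb, *Ugt1a7c* 89.2% of Ugt1, *Sult1d1* 75.4% of Sult and *Mgst3* 66.9% of Mgst. The Ugt1a genes share downstream exons, and an end stretch is counted for *Ugt1a7c* alone, so its share is not that of a single isoform. Family Ugt2 had no single leading gene, since *Ugt2b37* made up 64.5 to 83.1% of its level in 6 mice and *Ugt2b38* 58.5 to 80.9% in the other 5. The soluble glutathione S-transferases were spread more evenly, with *Gstm1* at 29.6%.

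**Figure D1:**
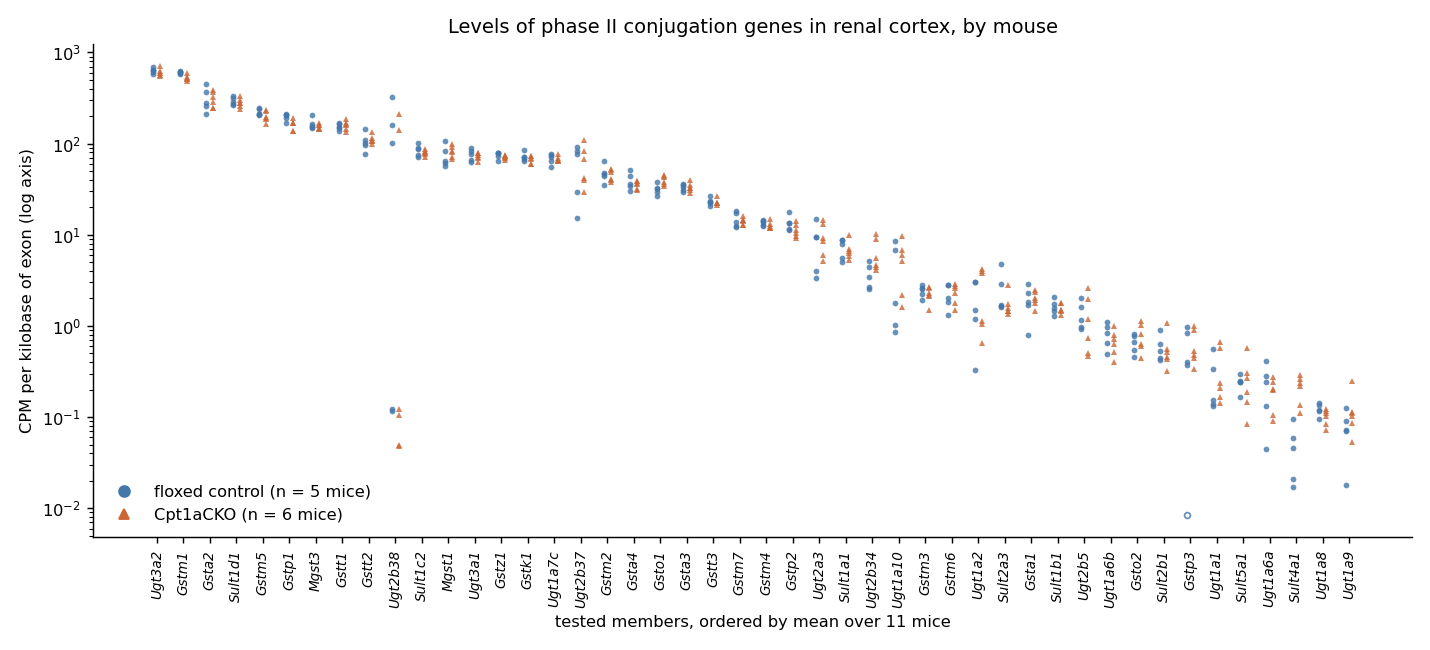
Level of each of the 46 tested members in each mouse, in CPM per kilobase of exon on a log axis, with circles for 5 floxed control and triangles for 6 Cpt1aCKO mice and members ordered by their mean. The open circle at the lower edge marks the floxed control mouse with 0 reads on *Gstp3*, and *Ugt2b38* falls into a high and a low set of mice in both genotypes.

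Levels of the leading enzymes were close from mouse to mouse. Of the 18 members with a mean of at least 100 CPM, 12 had a highest mouse less than 1.5 times the lowest. Over all 46 tested members, 11 had a highest mouse more than 5 times the lowest, beside 19.9% of all genes tested. Among genes with a mean of at least 10 CPM such spread was found in 0.706% of 9211 genes, and 3 members of that level had it, namely *Ugt2b38*, *Ugt2b37* and *Ugt1a10*.

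The summed level of each family was set side by side in the genotypes by mean and SD, without a test. The soluble glutathione S-transferases came to 1963 ± 165 CPM per kb (SD, n = 5) in floxed control and 1831 ± 126 (SD, n = 6) in Cpt1aCKO mice. Family Ugt3 came to 705 ± 55.0 against 678 ± 56.9 CPM per kb and the sulfotransferases to 391 ± 28.7 against 372 ± 34.5. The Mgst genes came to 239 ± 40.4 against 237 ± 19.7 CPM per kb and family Ugt1 to 75.9 ± 7.46 against 76.9 ± 8.6. Family Ugt2 came to 189.7 ± 140.01 against 137.8 ± 123.4 CPM per kb, a wide spread that came from *Ugt2b38*. With such a spread these values cannot show whether the family was alike in the genotypes. Each of these differences was smaller than the larger SD of its family, and in bulk tissue fewer cells of a type and less RNA per cell cannot be told apart.

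No member passed an adjusted p of 0.05 in edgeR's quasi-likelihood test, adjusted over all 18160 genes tested, of which 0.0165% did (higher in 0.011% and lower in 0.00551%). At an unadjusted p under 0.05, 3 members were higher in Cpt1aCKO mice (6.52% of 46, beside 3.35% of all genes tested) and 2 were lower (4.35%, beside 2.57%). The 3 higher were *Sult4a1*, *Gsto1* and *Ugt2b34*, and the 2 lower *Gstm1* and *Gstp1*. These 5 of 46 (beside 5.93% of all genes in either direction) also had an exact permutation p under 0.05, beside 5.97% of all genes, and an unadjusted p under 0.05 in DESeq2, beside 6.72%. In DESeq2, *Sult4a1* alone among the members passed an adjusted p of 0.05, where 0.174% of 17789 genes were called higher and 0.101% lower, and limma-voom called none. Without S7602 the same 5 genes had an unadjusted p under 0.05, as they did without any other mouse.

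The changes of most members were small. Of the 46, 30 had a log2 fold change of less than 0.2 in either direction and 1, *Sult4a1*, more than 1. Of the 46, 18 had a positive log2 fold change, and the median over the 46 was -0.06, beside 0.01 and 51.4% positive over all genes tested. By family the median log2 fold change was 0.03 for Mgst, -0.07 for Sult, 0.15 for Ugt1, 0.06 for Ugt2, -0.06 for Ugt3 and -0.06 for the soluble glutathione S-transferases.

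**Figure D2:**
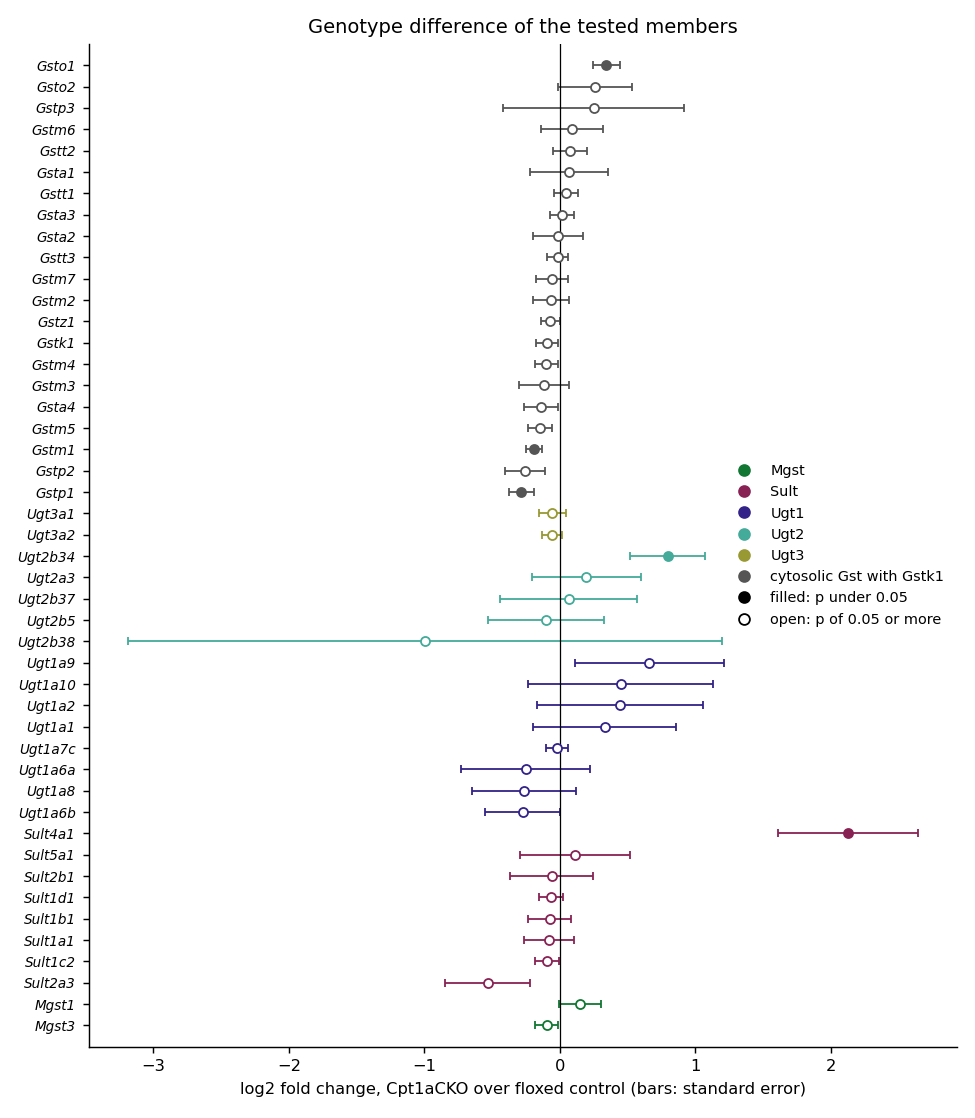
Log2 fold change of Cpt1aCKO over floxed control mice for the 46 tested members by family, with bars for the standard error, filled points for an unadjusted p under 0.05 and open points otherwise. Most points lie within 0.3 of 0, *Sult4a1* is at 2.12, and the bar of *Ugt2b38* is the widest.

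*Sult4a1*, a sulfotransferase-like protein known mainly from brain, was rare in the cortex and higher in Cpt1aCKO mice. Its level was 0.148, 0.116, 0.0425, 0.0532 and 0.237 CPM in floxed control and 0.557, 0.734, 0.656, 0.276, 0.338 and 0.597 CPM in Cpt1aCKO mice. Every Cpt1aCKO mouse lay above every floxed control mouse, and it was the only tested member whose groups did not overlap, beside 0.341% of all genes higher and 0.27% lower in this way. The log2 fold change was 2.12 ± 0.52 (SE) with an exact permutation p of 0.00216, the smallest that 462 splits of the mice can give, or 0.715 after adjustment over all genes. The edgeR adjusted p was 0.483 and the DESeq2 adjusted p 0.0429, and the adjusted p ran from 0.0429 to 0.915 over the alternative fits and left-out mice. Few reads stand behind it, 2 to 12 in each floxed control library and 12 to 35 in each Cpt1aCKO library. The library total decides the gap between the control S2578 and the Cpt1aCKO mouse S7602, which had 12 reads each.

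*Gsto1*, an omega-class transferase that reduces dehydroascorbate and thiol adducts, was at 53.8, 64.6, 77.5, 65.6 and 58.9 CPM in floxed control and 77, 89.9, 90.9, 87.7, 72.5 and 69.7 CPM in Cpt1aCKO mice. The groups overlapped, with 3 Cpt1aCKO mice above all controls. The log2 fold change was 0.34 ± 0.1 (SE), with p = 0.00395 and adjusted p = 0.64 by edgeR and an exact permutation p of 0.0216. Its neighbour *Gsto2* was far less abundant, at 1.53 ± 0.352 CPM (SD, n = 5) in floxed control and 1.83 ± 0.632 CPM (SD, n = 6) in Cpt1aCKO mice, with a log2 fold change of 0.26 and an exact permutation p of 0.446.

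*Ugt2b34*, a glucuronosyltransferase, was at 10.9, 22.1, 14.8, 19.1 and 11.6 CPM in floxed control and 24.2, 44, 38.6, 19.9, 17.8 and 19.2 CPM in Cpt1aCKO mice. The 3 Cpt1aCKO mice S2155, S2394 and S2397 lay above every control and the other 3 within the control range. Its log2 fold change of 0.79 ± 0.28 (SE) had p = 0.0141 and adjusted p = 0.755 by edgeR and an exact permutation p of 0.0433.

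*Gstm1*, the most abundant mu-class transferase, was lower in Cpt1aCKO mice by a small margin. Its level was 868, 889, 858, 915 and 898 CPM in floxed control and 780.3, 711, 786, 749, 750.0 and 879 CPM in Cpt1aCKO mice. Of the Cpt1aCKO mice, 5 lay below every control, and S2577 lay within the control range. This was a log2 fold change of -0.19 ± 0.062 (SE), with p = 0.00791 and adjusted p = 0.708 by edgeR and an exact permutation p of 0.00866.

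*Gstp1*, the main pi-class transferase, was at 259.7, 321, 328, 298 and 315 CPM in floxed control and 211, 263, 261, 258, 213 and 296 CPM in Cpt1aCKO mice. The groups overlapped, with 3 Cpt1aCKO mice below every control. This gave a log2 fold change of -0.28 ± 0.094 (SE), with p = 0.00888 and adjusted p = 0.73 by edgeR and an exact permutation p of 0.0195. *Gstp2*, named here after its values were seen, was at 15 ± 2.89 CPM (SD, n = 5) in floxed control and 12.6 ± 2.22 CPM (SD, n = 6) in Cpt1aCKO mice, with a log2 fold change of -0.26 ± 0.14 (SE) and an exact permutation p of 0.13. Of the 100-base windows of the *Gstp2* transcripts, 41.61% also occur in *Gstp1* and 25.09% of those of *Gstp1* in *Gstp2*, so the split of reads between them is uncertain. *Gstp3*, without such shared windows, was at 0.472 ± 0.358 CPM (SD, n = 5) in floxed control and 0.559 ± 0.243 CPM (SD, n = 6) in Cpt1aCKO mice.

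**Figure D3:**
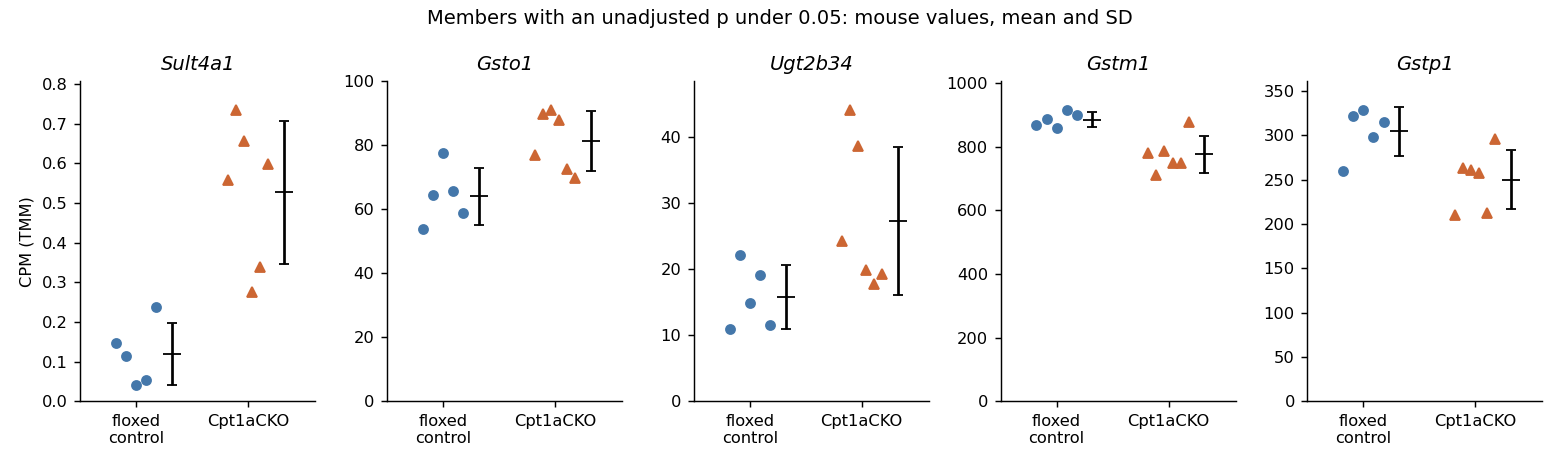
CPM in each mouse for the 5 members with an unadjusted p under 0.05, circles for 5 floxed control and triangles for 6 Cpt1aCKO mice, with mean and SD beside each group on a linear axis from 0. The groups are apart for *Sult4a1* (at most 0.237 CPM in floxed control and at least 0.276 CPM in Cpt1aCKO mice) and overlap for *Gsto1*, *Ugt2b34*, *Gstm1* and *Gstp1*.

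Among the other soluble transferases no member had an unadjusted p under 0.05. *Gsta2*, the leading alpha-class gene, was at 330.1, 301, 525, 431 and 249 CPM in floxed control and 383, 452, 438, 292, 286 and 333 CPM in Cpt1aCKO mice. The Cpt1aCKO mice, at 286 to 452 CPM, lay within the control range of 249 to 525 CPM. The log2 fold change of *Gsta2* was -0.01 ± 0.19 (SE) with an exact permutation p of 0.955. *Gsta3* and *Gsta4*, the latter known for clearing the lipid aldehyde 4-hydroxynonenal, had log2 fold changes of 0.01 ± 0.087 (SE) and -0.14 ± 0.12 (SE). *Gstm5* was at 283 ± 22.9 CPM (SD, n = 5) in floxed control and 256 ± 34.4 CPM (SD, n = 6) in Cpt1aCKO mice, with a log2 fold change of -0.15 ± 0.092 (SE) and an exact permutation p of 0.149. Of the mu class, 6 of 7 members had a negative log2 fold change, from -0.19 for *Gstm1* to -0.06 for *Gstm7*, and *Gstm6* had one of 0.09. The theta-class genes *Gstt1*, *Gstt2* and *Gstt3* had log2 fold changes of 0.04, 0.07 and -0.01. *Gstz1*, which also serves tyrosine breakdown, and *Gstk1* of mitochondria and peroxisomes had -0.07 and -0.10.

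The microsomal transferases are bound to membranes and also reduce lipid hydroperoxides. *Mgst3* was at 163, 172, 225, 165 and 180.0 CPM in floxed control and 174, 157, 176, 165, 160.1 and 184 CPM in Cpt1aCKO mice, and the control S7762 was the highest of all 11 mice. Its log2 fold change was -0.10 ± 0.085 (SE) with an exact permutation p of 0.385. *Mgst1* was at 129.9, 123.4, 212, 168 and 114 CPM in floxed control and 200.1, 145, 165, 135, 164 and 184.5 CPM in Cpt1aCKO mice. The groups overlapped over most of their ranges, and the log2 fold change was 0.15 ± 0.15 (SE) with an exact permutation p of 0.338. Without S7762 the log2 fold change was 0.31, and *Mgst1* then joined the members with an unadjusted p under 0.05.

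Of the sulfotransferases, *Sult1d1*, which in mouse acts on catecholamines and eicosanoids, was at 656, 821, 774, 664 and 698 CPM in floxed control and 630.0, 736, 688.5, 812, 689 and 590.5 CPM in Cpt1aCKO mice. Its log2 fold change was -0.07 ± 0.088 (SE) with an exact permutation p of 0.463. *Sult1c2* was at 166, 130.5, 159.9, 139.8 and 187 CPM in floxed control and 154, 141, 133, 159, 148 and 144 CPM in Cpt1aCKO mice, with a log2 fold change of -0.10 ± 0.088 (SE) and an exact permutation p of 0.37. For both genes the groups overlapped widely. The phenol sulfotransferase *Sult1a1* was much lower, at 10.9 ± 2.67 CPM (SD, n = 5) in floxed control and 10.3 ± 2.43 CPM (SD, n = 6) in Cpt1aCKO mice. *Sult1b1*, *Sult2b1*, *Sult5a1* and *Sult2a3* had means below 5 CPM in each genotype, and the largest change among them was a log2 fold change of -0.53 with an exact permutation p of 0.203 for *Sult2a3*. *Sult5a1* was highest in S7602, at 2.51 CPM, beside 0.367 to 1.33 CPM in the other mice.

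Family Ugt3 was led by *Ugt3a2*, the most abundant member, at 1972.5, 1997, 1876, 1782 and 2144 CPM in floxed control and 1772.5, 1923, 1708, 1862, 1821 and 2178 CPM in Cpt1aCKO mice. The log2 fold change was -0.06 ± 0.073 (SE) with an exact permutation p of 0.398. Its neighbour *Ugt3a1* was at 219, 207, 175, 166 and 241 CPM in floxed control and 198, 187, 167, 189, 212 and 211 CPM in Cpt1aCKO mice, with a log2 fold change of -0.06 ± 0.098 (SE) and an exact permutation p of 0.662. Groups overlapped for both, and the highest mouse was 1.27 times the lowest for *Ugt3a2* and 1.45 times for *Ugt3a1*.

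The Ugt1a genes are alternative first exons spliced to the same downstream exons, and 50.3 to 60.6% of each gene's exon length is also annotated to another gene on the same strand. In GENCODE M21 only *Ugt1a7c* runs 998 bases beyond the end of the other 8 genes, so reads in that stretch count for it alone whichever first exon was used. Its level, 318, 323, 235, 303 and 272 CPM in floxed control and 278, 323, 291, 271, 279 and 274 CPM in Cpt1aCKO mice, is therefore not that of 1 isoform. The log2 fold change was -0.02 ± 0.084 (SE) with an exact permutation p of 0.885.

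Reads counted for *Ugt1a10* and *Ugt1a2* differed widely between mice of each genotype. *Ugt1a10* was at 4.06, 2.35, 19.4, 15.6 and 1.96 CPM in floxed control and 15.5, 21.7, 11.6, 3.7, 13.6 and 4.99 CPM in Cpt1aCKO mice, and its log2 fold change was 0.45 ± 0.68 (SE) with an exact permutation p of 0.294. *Ugt1a2*, named here after its values were seen, was at 3.27, 2.62, 6.78, 6.65 and 0.732 CPM in floxed control and 8.32, 8.78, 9.38, 2.3, 2.53 and 1.42 CPM in Cpt1aCKO mice, with a log2 fold change of 0.44 ± 0.61 (SE) and an exact permutation p of 0.569. Each spanned more than 10-fold over the 11 mice, with high and low mice in both genotypes. *Ugt1a1*, the bilirubin glucuronosyltransferase, stayed below 1.5 CPM in all mice, at 0.586 ± 0.406 CPM (SD, n = 5) in floxed control and 0.74 ± 0.505 CPM (SD, n = 6) in Cpt1aCKO mice. *Ugt1a6a*, *Ugt1a6b*, *Ugt1a8* and *Ugt1a9* were below 3 CPM in all mice, and *Ugt1a9* was highest in S7602, with 24 reads against 2 to 14 elsewhere.

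*Ugt2b38* had the widest range of any tested member. Its level was 0.223, 0.231, 191, 304 and 611 CPM in floxed control and 0.201, 0.229, 0.0938, 0.092, 265 and 399 CPM in Cpt1aCKO mice. In 6 mice the gene had 4 to 12 reads, and in the other 5, namely S7762, S2582, S2578, S7763 and S2577, it had 8997 to 30860. Controls and Cpt1aCKO mice were found in both sets, 3 of 5 controls and 2 of 6 Cpt1aCKO mice being high, and no mouse lay between 0.231 and 191.1 CPM. Mice with successive numbers in their names, 1 of each genotype, were in the same set, with S7601 and S7602 low and S7762 with S7763 and S2577 with S2578 high, and whether these were littermates is not given by the labels. The fitted log2 fold change of -0.996 ± 2.19 (SE) with an exact permutation p of 0.312 thus rests on how many high mice each genotype held, and it ran from -4.22 to -0.16 over the alternative fits and left-out mice.

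*Ugt2b5*, which shares 24.67% of its 100-base windows with *Ugt2b38*, was at 2.15, 1.83, 1.72, 3 and 3.78 CPM in floxed control and 2.23, 0.871, 0.938, 1.38, 3.67 and 4.83 CPM in Cpt1aCKO mice. Its 4 highest mice, at 3.00 to 4.83 CPM, were all high for *Ugt2b38*, and the fifth such mouse, S7762 at 1.72 CPM, lay within the range of the other 6, 0.871 to 2.23 CPM. *Ugt2b37* was at 158, 147, 29.1, 55.9 and 174 CPM in floxed control and 80.3, 55.1, 76.3, 129, 159 and 206 CPM in Cpt1aCKO mice, with a log2 fold change of 0.06 ± 0.5 (SE) and an exact permutation p of 0.723. Only 1.06% of its windows occur in another gene. Of its 5 lowest mice, S7762 and S2582 were high for *Ugt2b38*. In GENCODE M21 on GRCm38 the genes lie on the minus strand at chr5:87409942-87424203 for *Ugt2b38*, chr5:87240493-87254804 for *Ugt2b37* and chr5:87124960-87140318 for *Ugt2b5*.

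**Figure D4:**
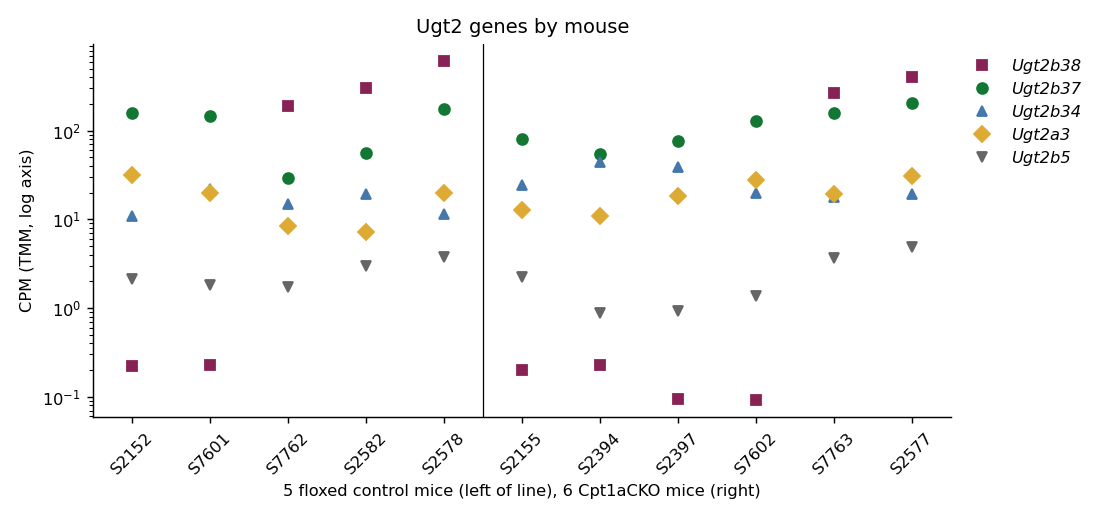
CPM on a log axis of 5 Ugt2 genes in each mouse, with 5 floxed control mice left of the line and 6 Cpt1aCKO mice right of it. *Ugt2b38* is at 191.1 to 611 CPM in 5 mice and at 0.092 to 0.231 CPM in 6, while *Ugt2b37*, *Ugt2b34*, *Ugt2a3* and *Ugt2b5* show no such gap.

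Several members varied together from mouse to mouse across the genotypes. The 5 mice with the highest *Gsta2*, namely S7762 and S2582 of the controls and S2394, S2397 and S2155 of the Cpt1aCKO mice, were also the 5 highest for *Gsta1* and *Ugt1a2* and the 5 lowest for *Ugt2b37* and *Ugt2a3*. They held 4 of the 5 highest mice for *Gsta4*, *Ugt1a10* and *Ugt1a1*. *Ugt2a3* was at 31.6, 20.1, 8.47, 7.13 and 20 CPM in floxed control and 12.8, 10.9, 18.1, 27.9, 19.5 and 30.5 CPM in Cpt1aCKO mice, with a log2 fold change of 0.20 ± 0.4 (SE) and an exact permutation p of 0.515. For *Ugt2b38* the same 5 mice held 2 of the 5 highest. The mice were ordered here by a measured level, so these sets are a description and no groups were compared. What share of all genes tested has the same sets was not counted. *Gsta1*, *Gsta4*, *Ugt2a3* and *Ugt2b5* were likewise named after their values were seen. Of the windows of *Gsta1*, 80.58% occur in another gene, so its count is uncertain.

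Over all 1035 pairs of tested members, 2 pairs had an adjusted permutation p under 0.05 by both Pearson and Spearman correlation of log2 CPM over the 11 mice. *Gsta2* and *Gsta4* had r = 0.922 (permutation p = 2e-05, adjusted 0.0155) and rho = 0.945 (p = 7e-05, adjusted 0.0233). Without the 2 mice farthest from the median r was 0.915, within the 6 Cpt1aCKO mice 0.917 and within the 7 mice whose names begin with S2 0.875. *Gsta1* and *Gsta2* had r = 0.874 (permutation p = 3e-05, adjusted 0.0155) and rho = 0.955 (p = 2e-05, adjusted 0.0207), with 0.907, 0.913 and 0.944 under the same restrictions. Of the windows of *Gsta2*, 28.37% occur in another gene and 18.21% in *Gsta1*, so this pair can share reads. The lowest correlation among the pairs given here, *Gsta2* with *Ugt2b37*, was r = -0.904 (permutation p = 0.00017, adjusted 0.0587) and rho = -0.818 (adjusted 0.225), and did not pass. The floxed controls and the mice whose names begin with S7 were too few for a value of their own.

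*Slco1a1*, *Prlr* and *Kap*, genes outside the families, were set beside this order of mice. *Slco1a1*, an organic anion transporter that depends on androgen in mouse kidney, was at 83.8, 80.2, 2.68, 14.6 and 52.4 CPM in floxed control and 15.6, 12.6, 13.1, 26.4, 49 and 89.4 CPM in Cpt1aCKO mice, and its 5 lowest mice were the 5 highest for *Gsta2*. *Prlr*, the prolactin receptor, was at 69.9, 46.3, 154, 115 and 36.7 CPM in floxed control and 104, 103, 97.3, 76.3, 86 and 32.1 CPM in Cpt1aCKO mice, and its 5 highest mice were the same 5. For *Kap*, the kidney androgen-regulated protein, 4 of the 5 lowest mice were among them, at 5264 to 10877 CPM over the 11 mice. The S3 marker sum was 2440, 2914, 2705, 2603 and 2352 CPM in S7762, S2582, S2394, S2397 and S2155 and 2842.5 to 3770 CPM in the other 6 mice, so the ranges overlapped. The part of androgen action or S3 content in the levels of the conjugation genes was not tested, and these non-member genes were named after their values were seen. What share of all genes has the same 5 mice at one end was not counted.

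**Figure D5:**
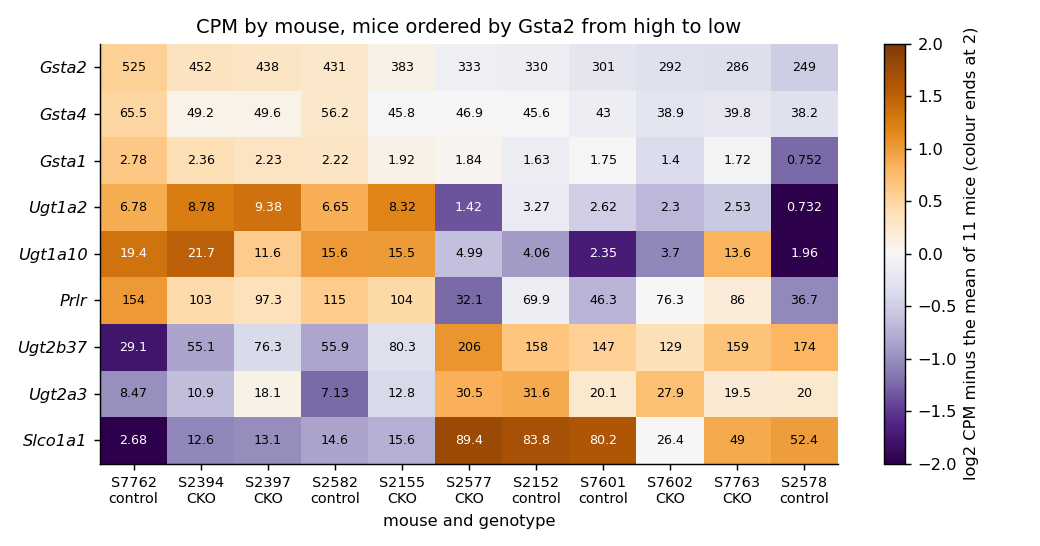
CPM (printed numbers) of 7 conjugation genes and of *Prlr* and *Slco1a1* in each mouse, with mice ordered by *Gsta2* from high to low and colour for the log2 CPM minus the mean of the 11 mice. The 5 mice at the left, 2 controls and 3 Cpt1aCKO, have high *Gsta2*, *Gsta1*, *Ugt1a2* and *Prlr* with low *Ugt2b37*, *Ugt2a3* and *Slco1a1*.

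Genes that supply the conjugation reactions or handle their products were taken from 8 pathway lists. By edgeR no gene of these lists passed an adjusted p of 0.05, and counts below are at an unadjusted p under 0.05, beside 3.35% of all genes higher and 2.57% lower. By DESeq2, *Nat8* of the mercapturic acid list passed an adjusted p of 0.05, at 0.0139.

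The mercapturic acid list holds the acetylating and deacetylating steps that follow glutathione conjugation, and also *Kyat1* and *Kyat3*, which do neither. Of its 10 genes, 5 were lower and 1 higher in Cpt1aCKO mice, with a median log2 fold change of -0.28. *Nat8*, which acetylates cysteine conjugates, was at 275, 237, 287, 281.5 and 326 CPM in floxed control and 177, 130.4, 178, 216, 205 and 235.5 CPM in Cpt1aCKO mice. Every Cpt1aCKO mouse lay below every control, with a log2 fold change of -0.56 ± 0.13 (SE), p = 0.000548 and adjusted p = 0.415 by edgeR, and an exact permutation p of 0.00433. Its relatives *Nat8f1*, *Nat8f3* and *Nat8f5* were lower by log2 fold changes of -0.35, -0.48 and -0.65, and *Nat8f2* was higher by 0.40. *Acy3*, an aminoacylase that removes acetyl groups from mercapturic acids and the highest gene of the list per kilobase, was at 2028 ± 462 CPM (SD, n = 5) in floxed control and 1489 ± 333 CPM (SD, n = 6) in Cpt1aCKO mice, a log2 fold change of -0.45 ± 0.17 (SE). The exact permutation p of *Acy3* was 0.0693. Of the S3 markers, 1 of 10, *Slc22a7*, was lower at an unadjusted p under 0.05. The log2 fold changes of the S3 markers ran from -0.794 for *Slc22a7* to 0.089 for *Slco1a6*, with a median of -0.195. The summed level of that list was 2440 to 3770 CPM in floxed control and 2352 to 3356 CPM in Cpt1aCKO mice. The part of S3 content in these levels was not tested.

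In glutathione synthesis and recycling, 1 of 18 genes was higher and 3 lower, with a median log2 fold change of -0.07. *Gss*, glutathione synthetase, was at 432 ± 21.9 CPM (SD, n = 5) in floxed control and 379 ± 39.3 CPM (SD, n = 6) in Cpt1aCKO mice, and *Chac2*, which degrades glutathione, was at 47.1 ± 5.21 CPM (SD, n = 5) in floxed control and 37.3 ± 5.18 CPM (SD, n = 6) in Cpt1aCKO mice, with log2 fold changes of -0.19 and -0.34. *Ggt7* had a log2 fold change of -0.90 at levels near 1 CPM, with an exact permutation p of 0.0693. *Oplah*, which returns 5-oxoproline to glutamate, was higher, at 331 ± 34 CPM (SD, n = 5) in floxed control and 399 ± 49.8 CPM (SD, n = 6) in Cpt1aCKO mice. *Ggt1*, the brush border enzyme that starts glutathione breakdown, had a log2 fold change of -0.04 ± 0.081 (SE).

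Few genes of the donor pathways passed the unadjusted threshold. None of 7 genes for UDP-glucuronic acid supply had an unadjusted p under 0.05, by edgeR, and the highest of them, *Entpd5*, had a log2 fold change of 0.01 ± 0.073 (SE). Of 10 genes for PAPS supply, the sulfate transporter *Slc13a1* was higher, with a log2 fold change of 0.24, and the PAPS synthase *Papss1* lower, with -0.21. *Bpnt1*, the highest gene of that list per kilobase, had a log2 fold change of -0.03. Of 5 tested genes for the β-glucuronidase *Gusb* and for sulfatases, *Arsk* was higher, with a log2 fold change of 0.19, and *Arsb*, the highest, had 0.07. The steroid sulfatase *Sts* was not among the genes listed, and the substrates of the sulfatases were not examined.

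Of 20 other conjugating or detoxifying enzymes tested, 3 were higher and 2 lower. *Hpgds*, a glutathione-dependent prostaglandin D synthase found in immune cells, was at 0.759 ± 0.165 CPM (SD, n = 5) in floxed control and 1.58 ± 0.428 CPM (SD, n = 6) in Cpt1aCKO mice, without overlap, with a log2 fold change of 1.06. *Ltc4s*, leukotriene C4 synthase of myeloid cells, had a log2 fold change of 0.56 with an exact permutation p of 0.0736. Of 8 macrophage markers 3 were higher at an unadjusted p under 0.05, and the summed level of that list was 392 to 689 CPM in floxed control and 545 to 939.8 CPM in Cpt1aCKO mice. Most of that sum came from *Cd74*, 1 of the 3, with a mean of 337 CPM in floxed control and 466 CPM in Cpt1aCKO mice. *Csf1r* had a log2 fold change of -0.09. The part of macrophage content in the levels of *Hpgds* and *Ltc4s* was not tested. *Ephx1*, microsomal epoxide hydrolase, had a log2 fold change of 0.39, and the lower genes were *Nat2*, an arylamine acetyltransferase, with -0.59 and *Tpmt*, thiopurine methyltransferase, with -0.20. *Inmt*, the highest gene of the list per kilobase, had -0.10.

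Of 8 efflux pumps, *Abcc4*, which exports glucuronides and sulfates, was higher, at 62.9 ± 24.3 CPM (SD, n = 5) in floxed control and 93.6 ± 23.8 CPM (SD, n = 6) in Cpt1aCKO mice with an exact permutation p of 0.0628, and *Abcg2*, the highest of them, had a log2 fold change of 0.09. Of the regulators of these enzymes, *Nfe2l2*, which encodes Nrf2, and *Nr1h4*, the bile acid receptor, were higher, with log2 fold changes of 0.19 and 0.22. The exact permutation p was 0.0152 for *Nfe2l2* and 0.0541 for *Nr1h4*. *Hnf4a*, the highest regulator per kilobase, had a log2 fold change of 0.21 ± 0.2 (SE).

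The 21 members that were not tested had few reads. *Mgst2* had 61 reads over the 11 libraries, *Sult6b1* and *Ugt2b36* had 44 each, *Ugt2b35* 37, *Gstt4* 31, *Ugt2b1* 27, *Sult1e1*, the estrogen sulfotransferase, 24 and *Ugt1a5* 22. The others were *Sult2a1*, *Sult2a2*, *Sult2a4*, *Sult2a5*, *Sult2a6*, *Sult2a7* and *Sult2a8* of the steroid sulfotransferase cluster, *Sult1c1*, *Sult3a1*, *Sult3a2*, *Sult6b2*, *Ugt2a1* and *Ugt2a2*, with 0 to 17 reads each. *Ugt2a1* had 0 reads and *Ugt2a2* 1, and 98.8% and 94.5% of their exon length is annotated to another gene as well. In 8 of the 21, S7602 alone was highest, as for *Mgst2* with 22 of the 61 reads and *Ugt2b1* with 19 of the 27. Their levels do not permit a comparison of the genotypes at this depth.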

How the data were processed

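The authors isolated RNA from renal cortex, made stranded mRNA libraries with 100-base reads, aligned them with STAR 2.7.3a and counted reads per gene with HTSeq, and these raw counts are what was deposited. Genome build, annotation release, and HTSeq version, mode and strand setting were not given in the sources used here. Deposited normalized values and the fold changes and p-values of the authors' own DESeq2 comparison were not used.

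Counts were analyzed in R 4.3.3 with edgeR 4.0.16. Genes were filtered with filterByExpr, scaled by TMM and tested with a robust quasi-likelihood fit without covariates, with Benjamini-Hochberg adjustment over all 18160 genes. Single genes were also compared by exact permutation, two-sided, over 462 splits of the mice on log2 CPM with a prior count of 2. The methods were tested on simulated data. Alternatives were DESeq2 1.42.0, limma 3.58.1 (voom with sample weights), other scalings, no filter, a fit that is not robust, the number series in the mouse names as a covariate, and leaving out each mouse. Correlations used 100000 permutations. Of the 53801 gene IDs, 53706 (99.82%) were in GENCODE M21 (GRCm38), which gave exon lengths, overlaps and shared 100-base windows.

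The members and lists were chosen with earlier results of these data known. Named in full were members with an unadjusted p under 0.05 or without overlap and the 2 with the highest level per kilobase in each family, and from each pathway list the genes with an unadjusted p under 0.05 and the highest per kilobase, apart from an item that is not reported here. Labels give no litters or cultures beyond 1 mouse per library. The closest libraries differed by 23.33 times the sampling noise, so none was a copy.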

Additional observations from a re-analysis of the deposited data

Results flagged for a closer look

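*Mgst3* in the floxed control mouse S7762 was at 224.7 CPM, far above the other 4 controls, the nearest of which was at 179.96 CPM. The gap was 0.73 of the range of the 5 controls. It was the only value to stand apart in this way among 44 groups examined, the values of the named members within each genotype, where chance alone gives about 1 in 20. Without S7762 the log2 fold change of *Mgst3* was -0.003, and over all left-out mice it ran from -0.13 to -0.003.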

How the results depend on the processing

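At an adjusted p under 0.05 the count of members higher in Cpt1aCKO mice was 1 in DESeq2 (*Sult4a1*, log2 fold change 2.15) and 0 in edgeR. The cause was not tested. With each mouse left out in turn, 3 to 4 members were higher and 2 to 3 lower at an unadjusted p under 0.05, none passed an adjusted p of 0.05 in either direction, and the median log2 fold change of the members ran from -0.06 to -0.01. The 5 members with an unadjusted p under 0.05 had one in every alternative fit and without any mouse. Others joined them in 1 setting each, namely *Mgst1* without S7762, *Gstp2* without S2394 (log2 fold change -0.34), *Sult2a3* without S7602, *Gstm5* without S2577 and *Sult2a7* without a filter on low counts. Directions turned only for members whose changes were within their error. For *Gsta2* the log2 fold change was 0.056 by limma-voom and ran from -0.12 to 0.15 with each mouse left out, where *Ugt1a7c* ran from -0.086 to 0.02, *Ugt2b37* from -0.18 to 0.28, *Ugt2a3* from -0.001 to 0.52, *Ugt2b5* from -0.45 to 0.10, *Ugt3a1* from -0.11 to 0.019 and *Gsta1* from -0.13 to 0.27. Fewer mice enter those fits, and no other cause was tested. Other scalings turned none of the named directions. Of the values under an alternative, 573 kept their direction and side of the threshold or moved little, and 19 reversed. No paired analysis was possible because the labels give no litters or replicate numbers that pair mice, and successive numbers in mouse names are not stated to mark a litter. Depth limits *Sult4a1*, *Gstp3*, *Ugt1a8*, *Ugt1a9* and the 21 untested members. The sharing of sequence limits the Ugt1a genes, *Gsta1*, *Gsta2*, *Gstp1*, *Gstp2*, *Ugt2b38* and *Ugt2b5*.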
